A study of Mus musculus with 6 samples.

Results

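The genes described here encode extracellular metalloproteases and their inhibitors. They were chosen by symbol, as the protein-coding genes of the GENCODE annotation of mm10 whose names start with Adamts, Adamtsl, Mmp or Timp, and this gave 50 of 21938 protein-coding genes: 19 *Adamts*, 5 *Adamtsl*, 22 *Mmp* and 4 *Timp* genes. *Mmp1a* is annotated as a polymorphic pseudogene and was not included. An ATAC-seq peak was assigned to a gene when its summit lay in the gene body or within 100 kb of the transcription start site (TSS). ATAC-seq measures open chromatin, where the Tn5 transposase can insert sequencing adapters. The 6 peak lists held 6921 peaks at these genes, which made 965 of the 160877 consensus sites in the genome. Of the 965 sites, 428 had a member gene as their nearest protein-coding TSS, and 55 were assigned to more than 1 member, so assignment to a gene is by distance and does not show which gene a site acts on.

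The libraries came from nuclei of primary visual cortex (V1) at postnatal day 21, with 3 GR-con and 3 GR-KO libraries. All mice were GRfl/fl, with both alleles of the glucocorticoid receptor (GR) gene *Nr3c1* flanked by loxP sites. Soon after birth, GR-KO mice received an AAV2/5 vector in which GfaABC1D drives Cre, joined through T2A to EGFP-KASH and followed by 4x6T, and GR-con mice received the same design with ΔCre, an inactive recombinase, in place of Cre. The GfaABC1D promoter drives expression in astrocytes, KASH carries EGFP to the nuclear membrane, and the GFP-positive nuclei were sorted from tissue pooled over several mice for each library. In bulk nuclei, a change in the share of nuclei that are open at a site and a change in how open it is in each nucleus cannot be told apart.

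ADAMTS proteases are secreted zinc enzymes with thrombospondin repeats. Among them, Adamts1, Adamts4, Adamts5, Adamts8, Adamts9, Adamts15 and Adamts20 can cleave the chondroitin sulphate proteoglycans aggrecan, brevican, neurocan and versican, which fill the brain's extracellular space and surround some neurons as perineuronal nets. ADAMTS-like proteins share the thrombospondin repeats but lack the protease domain. Matrix metalloproteases (MMPs) cleave collagens, laminins and other matrix proteins, either as secreted enzymes or anchored in the membrane, and the TIMPs are their protein inhibitors. GR is a hormone-activated transcription factor that binds DNA as a dimer at paired half-sites.

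The 201 bases around the centres of 5 distal sites are shown, picked with their differences and motifs known. Each holds a motif discussed below, so the 5 do not show how often motif and direction go together. The sequences are the plus strand of mm10, read from the GRCm38 assembly. Capitals mark, on either strand, the full GR motif (GNACA, 3 bases, TGTNC), the GR half-site AGAACA, the nuclear factor I (NFI) half-site TTGGC and the sequence ACTGTA, which an earlier analysis of these data picked at sites ranked higher in GR-KO. Of the 5 windows, 4 lie in *Adamts9* introns or upstream of *Adamts5*, and no annotated exon falls in any of the 5. Of other sites described below, those 32825 bp upstream of *Adamtsl2* and 62455 bp upstream of *Mmp17* hold none of these motifs. The *Mmp2* site (50285 bp), with peaks in GR-KO only, holds a GR half-site. The *Mmp15* site (68723 bp), lower in GR-KO, holds GR half-sites, NFI half-sites and ACTGTA. The *Adamts9* site 18710 bp into the gene (chr6:92924682-92924882) holds ACTGTA at 2 places, both read as TACAGT on this strand.
Adamts9 +18710: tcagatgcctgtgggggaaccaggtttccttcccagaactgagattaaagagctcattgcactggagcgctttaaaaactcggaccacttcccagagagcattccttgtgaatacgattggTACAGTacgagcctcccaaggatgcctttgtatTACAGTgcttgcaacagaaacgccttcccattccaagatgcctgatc
The *Adamts9* site 155997 bp into the gene (chr6:92787395-92787595) holds a full GR motif.
Adamts9 +155997: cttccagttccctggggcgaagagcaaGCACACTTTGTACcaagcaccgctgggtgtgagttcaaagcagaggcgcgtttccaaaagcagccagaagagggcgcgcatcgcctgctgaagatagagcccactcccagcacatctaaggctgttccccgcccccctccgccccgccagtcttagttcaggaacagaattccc
The *Adamts9* site 130619 bp into the gene (chr6:92812773-92812973) holds 2 GR half-sites and 1 NFI half-site.
Adamts9 +130619: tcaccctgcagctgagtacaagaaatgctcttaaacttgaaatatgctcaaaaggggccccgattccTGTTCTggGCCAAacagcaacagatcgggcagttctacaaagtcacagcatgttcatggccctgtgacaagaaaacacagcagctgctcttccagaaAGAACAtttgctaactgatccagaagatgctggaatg
The site 73384 bp upstream of *Adamts5* (chr16:85975112-85975312) holds 2 NFI half-sites beside 1 ACTGTA.
Adamts5 -73384: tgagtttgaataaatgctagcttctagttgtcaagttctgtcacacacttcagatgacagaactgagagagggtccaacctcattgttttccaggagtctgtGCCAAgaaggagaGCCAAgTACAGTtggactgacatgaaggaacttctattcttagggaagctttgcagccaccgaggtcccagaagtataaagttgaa
The site 32941 bp upstream of *Adamts17* (chr7:66806694-66806894) holds 2 GR half-sites, with an NFI half-site directly after the second.
Adamts17 -32941: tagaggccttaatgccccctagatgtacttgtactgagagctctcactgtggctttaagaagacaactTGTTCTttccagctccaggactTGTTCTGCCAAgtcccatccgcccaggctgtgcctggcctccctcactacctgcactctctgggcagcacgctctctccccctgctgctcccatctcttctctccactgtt

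The number of peaks at the members differed little between conditions. The members held 1160, 1126 and 1234 peaks in GR-con 1, 2 and 3 and 1115, 1140 and 1146 in GR-KO 1, 2 and 3. Per 100000 listed peaks this was 619 ± 8.03 and 621 ± 1.49 for GR-con and GR-KO (SD, n = 3 each), a difference of 2.56. That was smaller than the spread between GR-con libraries. The difference was -5.76 with equal list lengths, -1.81 without GR-con 2 and 6.09 without GR-con 1, so its sign is not settled. *Adamts* genes held 231 ± 7.97 and 228 ± 1.58 peaks per 100000 in GR-con and GR-KO (SD, n = 3 each), and *Mmp* genes 242 ± 4.61 and 239 ± 4.07. *Adamtsl* genes held 90.0 ± 0.86 and 94.3 ± 2.08, and *Timp* genes 63.7 ± 2.05 and 68.2 ± 4.44. Only for the *Adamtsl* genes did the values of the 3 GR-KO libraries, 95.3, 91.9 and 95.6, all lie above those of the GR-con libraries, 89.5, 91.0 and 89.5. No test was made over the families.

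**Figure D1:**
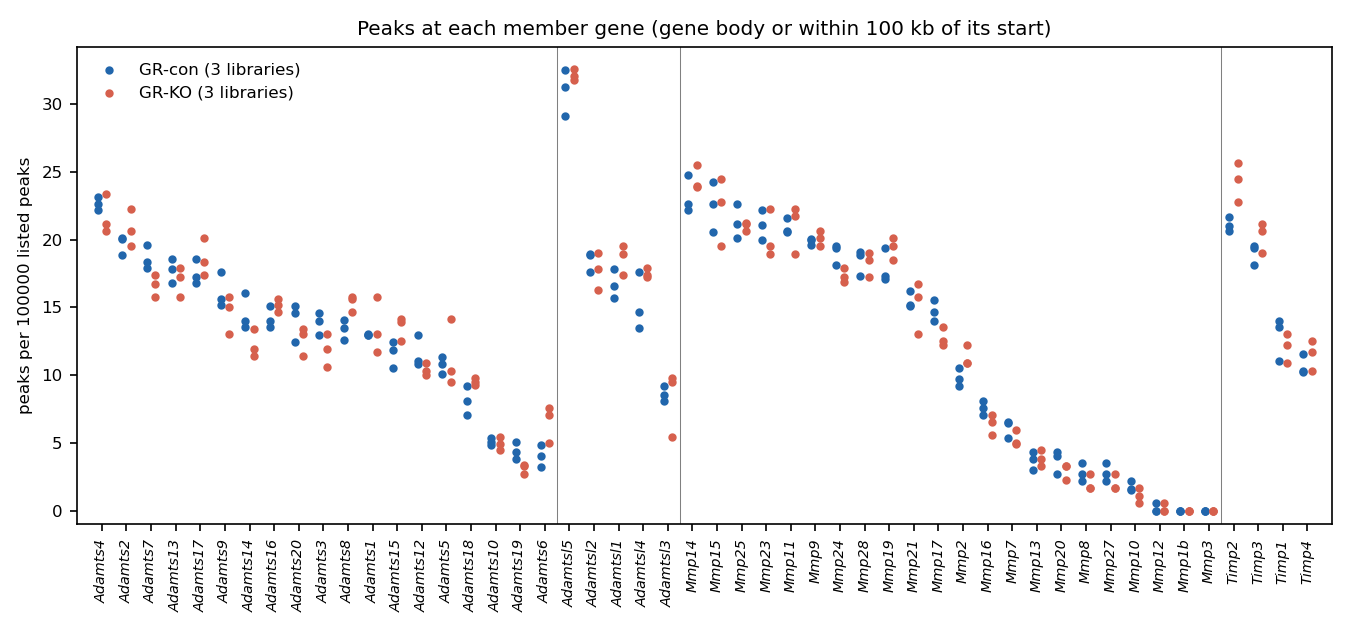
Peaks at each of the 50 member genes, per 100000 peaks listed for that library, with families separated by vertical lines. Each point is 1 library, and the points of both conditions overlap or lie close together at most genes, with most peaks at Adamtsl5 and 0 at Mmp1b and Mmp3.

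Of the 50 genes, 44 had a mean of at least 5 peaks and were tested with limma beside all 18237 such protein-coding genes. None passed the adjusted threshold of 0.05 in either direction, against 0.0219% of all tested genes with fewer peaks and 0.00548% with more peaks in GR-KO. At an unadjusted p under 0.05, 4 of the 44 members had fewer peaks and 5 had more. Of all 18237 tested genes, 789 (4.33%) had fewer and 934 (5.12%) had more at that level. No test was made of these counts. The smallest p was at *Adamts6*, with 9, 6 and 8 peaks in GR-con 1, 2 and 3 and 9, 13 and 14 in GR-KO 1, 2 and 3 (log2 difference 0.66, standard error 0.171, adjusted p = 0.167 from limma). The 2 groups of raw counts touch at 9. The next was *Timp2*, which encodes an inhibitor that also takes part in activating pro-Mmp2, with 39, 40 and 41 peaks in GR-con against 46, 45 and 42 in GR-KO (log2 difference 0.20, standard error 0.0708, adjusted p = 0.347 from limma). *Adamts19* had 8, 7 and 10 peaks in GR-con against 6, 6 and 5 in GR-KO (log2 difference -0.45, standard error 0.171, adjusted p = 0.384 from limma). The others at that level were *Adamts14*, *Adamts3* and *Mmp17* with fewer peaks and *Adamtsl4*, *Adamts8* and *Adamts15* with more, at adjusted p-values of 0.427 to 0.499 from limma. *Adamts8* and *Adamts15* are neighbours, with starts at 30942562 and 30922452 on chromosome 9. Their windows share most of their length and peaks, so these genes are not separate observations. The 6 genes under the minimum were *Mmp12*, *Mmp1b*, *Mmp3*, *Mmp10*, *Mmp8* and *Mmp27*, all in the *Mmp* cluster on chromosome 9, and *Mmp1b* and *Mmp3* had 0 peaks in every library.

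At promoters, the families differed in how many genes had a peak within 500 bp of the annotated TSS. A promoter peak was present in all 6 libraries at 32 of the 50 members, in some libraries at 3 (*Adamts6*, *Adamts19* and *Timp1*) and in none at 15, beside 56.6% of all protein-coding genes with one in all 6. All 5 *Adamtsl* promoters, 16 of 19 *Adamts* promoters and 3 of 4 *Timp* promoters were among the 32, but only 8 of 22 *Mmp* promoters. The 15 without a peak were *Adamts13*, which cleaves von Willebrand factor, and 14 *Mmp* genes, among them both gelatinases, *Mmp2* and *Mmp9*. A single TSS was used for each gene, so peaks at other start sites were not counted. The highest promoter fold enrichment, meaning the summit's signal over its local background, was at *Mmp24*, a membrane-type MMP, with 19.0, 21.6 and 21.3 in GR-con against 21.3, 20.6 and 20.2 in GR-KO.

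**Figure D2:**
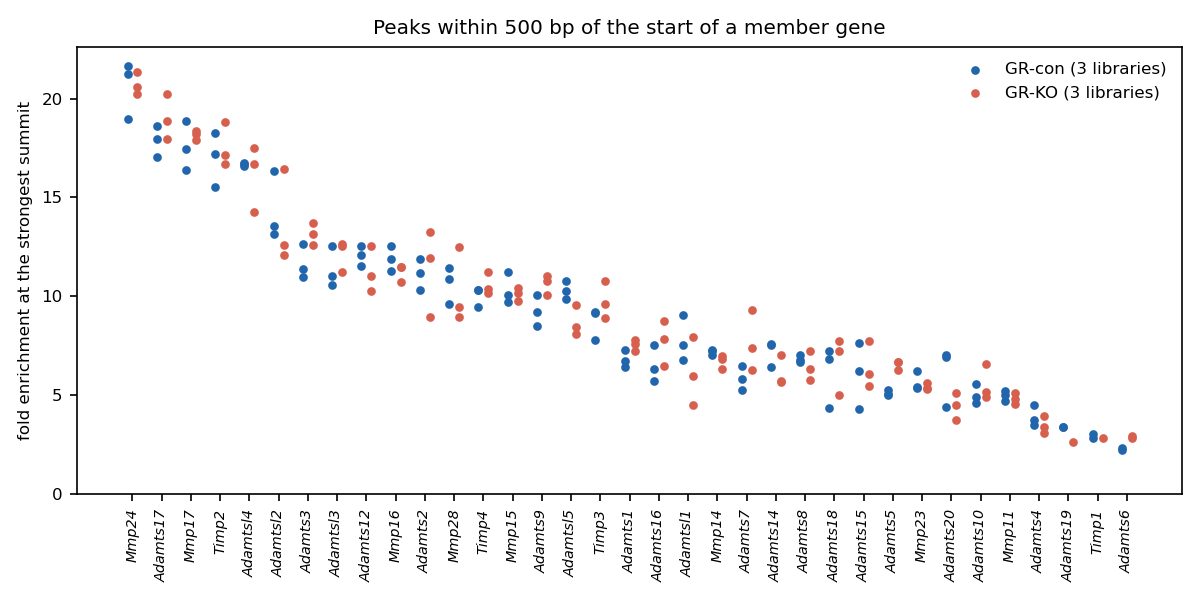
Fold enrichment at the strongest summit within 500 bp of the TSS for the 35 members with a promoter peak in any library, 1 point per library (no point where no peak was listed). The groups overlap at most genes, and at Adamts5 all GR-KO points lie above all GR-con points.

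Among the 32 promoters with a peak in every library, the percentiles of fold within each list lay higher in every GR-KO than in every GR-con library at 4 and lower at 0. For all such promoters these shares were 10.2% and 4.92%, so the members stood near the background. The 4 were *Adamts3*, *Adamts5*, *Adamts9* and *Timp3*. By percentiles of −log10 p, compared after seeing the data, 4 were higher (*Adamts5*, *Adamts9*, *Adamtsl3* and *Timp2*) and 2 were lower (*Adamts14* and *Mmp16*), against 5.13% and 9.05% of all such promoters, so only *Adamts5* and *Adamts9* were higher on both scales. The *Adamts5* promoter, of a major aggrecan-cleaving protease, had a fold of 5.05, 5.02 and 5.28 for GR-con against 6.30, 6.70 and 6.67 in GR-KO. Its percentile was 53.8 ± 4.01 and 63.9 ± 1.56 for GR-con and GR-KO (SD, n = 3 each). As a consensus site, 15 bp upstream of the TSS and also in the window of *Adamts1*, it was not called when sites were ranked by fold (score difference 0.26, standard error 0.0952, adjusted p = 0.32 from limma) and was called when they were ranked by −log10 p (0.35, standard error 0.0813, adjusted p = 0.0368 from limma). That call was lost without any 1 of the 6 libraries (limma adjusted p = 0.0775 to 0.179).

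The *Adamts9* promoter had a fold of 10.0, 9.21 and 8.49 for GR-con against 10.8, 11.0 and 10.1 in GR-KO, and the *Adamts3* promoter 12.7, 11.4 and 11.0 in GR-con against 12.6, 13.1 and 13.7 in GR-KO. The folds overlapped at *Adamts3*, a procollagen-processing protease, and the percentiles did not. The promoter of *Timp3*, whose protein binds to the extracellular matrix and inhibits MMPs and several ADAMTS proteases, had a fold of 9.16, 9.19 and 7.80 for GR-con against 10.8, 9.60 and 8.88 in GR-KO. Its folds also overlapped while its percentiles, 73.4 ± 0.69 and 76.5 ± 2.30 (SD, n = 3 each), did not.

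At the other promoters named by the selection rule the fold percentiles overlapped between conditions. *Mmp14*, the membrane-type MMP that activates pro-Mmp2, had a promoter fold of 7.02, 7.28 and 7.22 in GR-con against 6.35, 6.82 and 7.0 in GR-KO, so its folds, unlike its percentiles, were lower in every GR-KO library. *Adamts12* had 11.5, 12.5 and 12.1 in GR-con against 12.5, 11.1 and 10.3 in GR-KO, and *Adamts16* had 5.71, 7.55 and 6.33 in GR-con against 6.48, 8.75 and 7.86 in GR-KO. *Adamts4*, with *Adamts2* the *Adamts* gene with most peaks in GR-con, had a weak promoter peak of 3.52, 3.75 and 4.52 in GR-con against 3.37, 3.94 and 3.11 in GR-KO. The *Adamts2* promoter lay between 8.95 and 13.3 over all libraries. *Adamtsl5* and *Adamtsl2* held most peaks of the *Adamtsl* genes in GR-con. The *Adamtsl5* promoter had 10.3, 9.88 and 10.8 in GR-con against 8.45, 9.54 and 8.12 in GR-KO, again lower in every GR-KO library by fold but not by percentile, and the *Adamtsl2* promoter lay between 12.1 and 16.4. *Mmp14* and *Mmp15* held most peaks of the *Mmp* genes in GR-con, and the *Mmp15* promoter lay between 9.72 and 11.2.

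Of the inhibitors, *Timp2* had the strongest promoter, with 17.2, 18.3 and 15.5 in GR-con against 18.8, 17.1 and 16.7 in GR-KO. *Timp4* had 10.3, 10.3 and 9.48 in GR-con against 11.2, 10.2 and 10.4 in GR-KO. At *Timp1* a promoter peak was listed in GR-con 1 (3.02), GR-con 2 (2.82) and GR-KO 2 (2.84) only. *Timp1*, *Timp3* and *Timp4* lie on the opposite strand within the synapsin genes *Syn1*, *Syn3* and *Syn2*, so peaks in their windows also fall in those genes.

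To compare single sites, the fold at each consensus site was ranked within each library, the ranks were turned into normal scores and GR-KO was compared with GR-con by limma over all 160877 sites. Of the 965 member sites, 1 ranked higher and 0 ranked lower in GR-KO at an adjusted p under 0.05, where 0.0609% of all sites were higher and 0.127% were lower. At an unadjusted p under 0.05, 60 member sites (6.22%) were higher and 47 (4.87%) were lower, against 6.12% and 6.02% of all sites. The median score difference was 0.0090 over member sites and 0.0165 over all sites. By family, 29 higher and 19 lower sites of 376 belonged to *Adamts* genes, 8 and 6 of 144 to *Adamtsl*, 14 and 17 of 352 to *Mmp* and 10 and 6 of 106 to *Timp*. When sites were ranked by −log10 p in place of fold, 8 member sites (0.829%) were called higher and 9 (0.933%) lower, beside 0.76% and 0.835% of all sites. Both rankings thus gave shares near those of all sites.

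**Figure D3:**
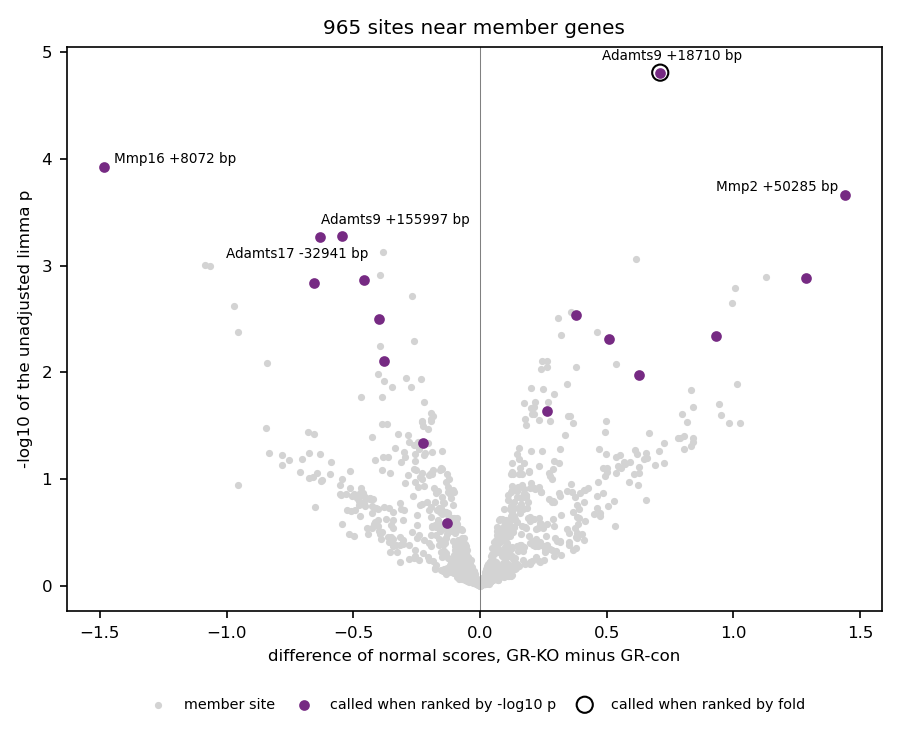
Score difference and unadjusted limma p (−log10) of the 965 member sites when ranked by fold. Purple points, 17 sites, passed an adjusted p of 0.05 when ranked by −log10 p, and the circled point, in Adamts9, is the 1 site that passed when ranked by fold. Labels give the distance from the TSS of the named gene.

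The called site lies in an intron of *Adamts9* (ENSMUSG00000030022.14, chr6:92772699-92943492, minus strand), 18710 bp from its TSS. *Adamts9* encodes a protease that cleaves versican and aggrecan. The site was open in every library. Its fold was 4.82, 5.58 and 4.84 for GR-con 1, 2 and 3 against 11.2, 11.2 and 10.2 in GR-KO 1, 2 and 3. The −log10 p of the summit was 14.1, 17.8 and 18.2 in GR-con against 67.5, 69.0 and 65.4 in GR-KO. On both scales every GR-KO library lay far above every GR-con library. Its percentile among all sites rose from 52.7 ± 2.83 to 78.2 ± 1.23 (SD, n = 3 each), and its score by 0.71 (standard error 0.0817, adjusted p = 0.0297 from limma). Ranked by −log10 p, it differed by 0.73 (standard error 0.0938, limma adjusted p = 0.000248). Leaving out any 1 library raised the adjusted p to between 0.115 and 0.197 when ranked by fold, with score differences of 0.70 to 0.77, and left it between 0.00744 and 0.0217 when ranked by −log10 p. Over all alternatives it ranged from 9.56e-07 to 0.197. This is the site with 2 copies of ACTGTA in the sequence printed first, a sequence found within 100 bp of the centre of 7.82% of all sites.

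The intron site 155997 bp into *Adamts9*, the one with the full GR motif, differed in the opposite direction. Its fold was 22.2, 18.7 and 17.2 in GR-con against 13.0, 12.7 and 13.5 in GR-KO. The summit's −log10 p stood at 221, 164 and 154 in GR-con against 71.2, 61.7 and 74.2 in GR-KO. All GR-con values were above all GR-KO values. It was not called when ranked by fold (score difference -0.55, standard error 0.101, adjusted p = 0.0829 from limma). Ranked by −log10 p it was called (-0.51, standard error 0.0683, adjusted p = 0.000374 from limma), and remained so without each library in turn (limma adjusted p = 0.00647 to 0.0376). The full GR motif is present at 0.634% of all sites. Among the 17 member sites called by −log10 p, this site and the one at 18710 bp were the 2 whose call held whichever library was left out. This was noticed after their values were seen. Of the other 15, 7 calls held without at least 1 of the libraries and 8 were lost whichever was left out.

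Another *Adamts9* intron site, 130619 bp into the gene with 2 GR half-sites, had a fold of 16.0, 15.1 and 9.74 for GR-con against 6.68, 5.11 and 7.86 in GR-KO. It was lower in every GR-KO library, with an adjusted p of 0.114 ranked by fold and 0.0142 ranked by −log10 p (limma). The nearest protein-coding TSS to it, and to the site at 155997 bp, is that of *A730049H05Rik*. At 93109 bp a strong intron site had 23.7, 22.0 and 20.5 in GR-con against 22.8, 20.6 and 18.9 in GR-KO. These folds overlapped, and the site was called lower by −log10 p only (adjusted p = 0.0441 from limma). Over the whole gene, *Adamts9* had 28 consensus sites, and its peak number did not pass the test, with 29, 28 and 35 peaks in GR-con against 27, 29 and 24 in GR-KO (adjusted p = 0.673 from limma).

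**Figure D4:**
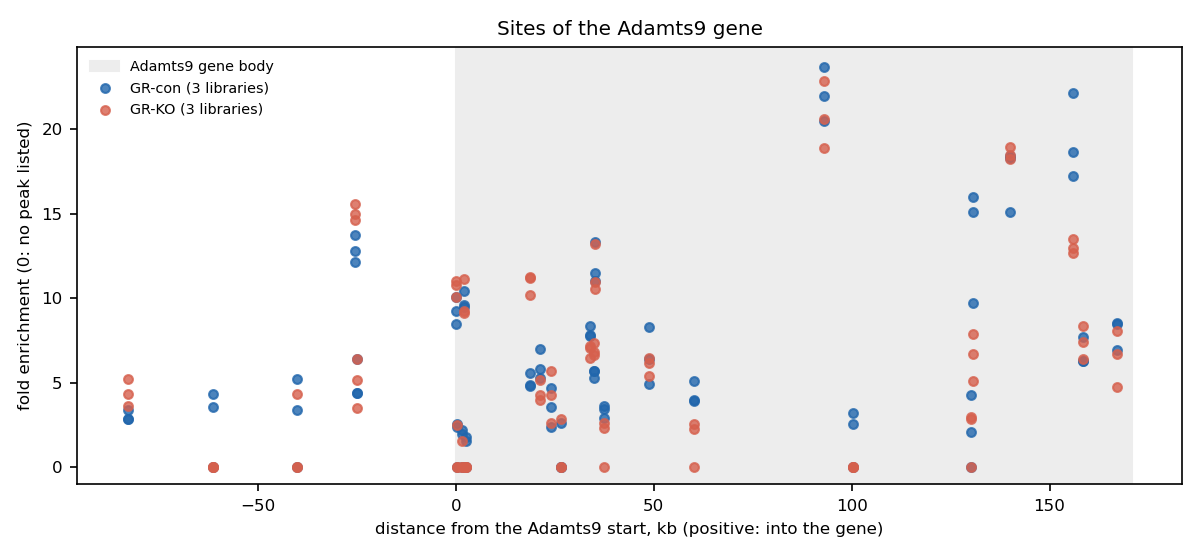
Fold enrichment at the 28 consensus sites of Adamts9 against distance from its TSS, 1 point per library and site. GR-KO points lie above GR-con points at the site 18710 bp into the gene and below them at the sites 130619 and 155997 bp into it.

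At *Adamts5*, both distal sites of smallest p had higher folds in every GR-KO library. The site 62726 bp upstream had a fold of 3.97, 3.39 and 3.72 for GR-con against 6.14, 7.19 and 6.17 in GR-KO, without overlap (score difference 0.61, standard error 0.123, adjusted p = 0.0964 from limma). That difference was 0.34 when matched by a covering peak and 0.040 with a summit within 100 bp of the centre. The site 73384 bp upstream had 3.16, no peak and 3.79 in GR-con 1, 2 and 3 and 9.75, 7.76 and 8.71 in GR-KO. There the −log10 p was 6.46 and 11.2 in GR-con 1 and 3 and 73.7, 49.9 and 56.6 in GR-KO. Its adjusted p was 0.11 ranked by fold and 0.00228 ranked by −log10 p (limma), the latter moving to between 0.0179 and 0.081 with 1 library left out. *Adamts5* is the nearest gene to both. Its peak numbers overlapped between the groups (21, 20 and 20 peaks in GR-con, 17, 26 and 19 in GR-KO).

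Of the other *Adamts* genes, the site upstream of *Adamts17* at 32941 bp, in the body of *Cers3*, had a fold of 13.6, 16.7 and 10.1 for GR-con against 6.68, 6.25 and 6.74 in GR-KO. It lay lower in every GR-KO library, with an adjusted p of 0.0834 ranked by fold and 0.0188 by −log10 p (limma). The site 26846 bp upstream of the same gene had a peak in every GR-KO library (3.07, 3.03 and 3.37) and in no GR-con library, and a site 194711 bp into the gene showed the reverse (3.59, 4.14 and 2.70 in GR-con). An *Adamts4* intron site 6947 bp from the TSS had 18.1, 19.0 and 19.2 in GR-con against 14.4, 13.8 and 14.7 in GR-KO, with an adjusted p of 0.0923 by fold and 0.293 by −log10 p (limma). The site 14360 bp upstream of *Adamts3* had 14.4, 12.8 and 11.2 in GR-con against 9.03, 8.33 and 7.11 in GR-KO (adjusted p = 0.107 from limma). An intron site 10314 bp into *Adamts18* had 8.69, 10.2 and 9.02 in GR-con against 14.8, 11.4 and 13.3 in GR-KO (adjusted p = 0.14 from limma). None of these 4 genes had a site that passed when ranked by fold. The site of smallest p at *Adamts16*, 69311 bp upstream, had 14.4, 14.7 and 12 in GR-con against 16.5, 14.8 and 15.7 in GR-KO (adjusted p = 0.36 from limma). At *Adamts12*, in an intron 133665 bp from the TSS, the groups overlapped, with 6.61, 4.52 and 3.89 in GR-con against 5.78, 6.06 and 6.92 in GR-KO (adjusted p = 0.457 from limma).

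For the *Mmp* genes, the smallest p was in an intron of *Mmp16*, a membrane-type MMP, 8072 bp from its TSS. A peak was listed there in GR-con 1, 2 and 3, with a fold of 4.91, 4.70 and 7.10, and in no GR-KO library (score difference -1.49, or -0.75 when matched by a covering peak; adjusted p = 0.0532 by fold and 0.0328 by −log10 p, both from limma). The call by −log10 p was lost without any 1 library. The site assigned to *Mmp2*, a gelatinase, had the mirror pattern, with no peak in GR-con against 6.14, 4.35 and 3.74 in GR-KO (adjusted p = 0.0644 by fold and 0.0413 by −log10 p, limma). It lies 50285 bp from the *Mmp2* TSS inside *Lpcat2*, the gene with the nearest start. Both of these sites were kept through the condition with peaks alone, with the other condition tied at the lowest rank, so they had to differ and their p-values are a description, not evidence of a difference. *Mmp14* had a site of each direction. An intron site 11767 bp into the gene had 2.38, 2.53 and 3.16 in GR-con against 3.82, 4.66 and 4.19 in GR-KO (adjusted p = 0.236 by fold and 0.0405 by −log10 p, limma). The site 12631 bp from the TSS, in an untranslated part of an exon, had 15.1, 15.7 and 14.3 in GR-con against 11.1, 12 and 11.9 in GR-KO (adjusted p = 0.125 by fold and 0.678 by −log10 p, limma).

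Other sites in *Mmp* windows lie closer to other genes. The site 25797 bp from the *Mmp9* TSS, inside *Slc12a5*, had peaks in GR-con only (3.58, 3.60 and 4.08), and the site 16137 bp upstream of *Mmp9*, nearest to *Zfp335*, had 25.6, 26.5 and 23.6 in GR-con against 22.2, 21.8 and 19.8 in GR-KO (adjusted p = 0.111 by fold and 0.0407 by −log10 p, limma). The site 62455 bp upstream of *Mmp17*, inside *Sfswap*, had 11.8, 14.0 and 10.6 in GR-con against 17.7, 17.3 and 14.3 in GR-KO (adjusted p = 0.143 by fold and 0.00283 by −log10 p, limma). At *Mmp24* and *Mmp15* the sites called by −log10 p lie in *Uqcc1* and *Cfap20*, where the first was higher and the second lower in GR-KO (adjusted p = 0.0121 and 0.0303 from limma).

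Of the ADAMTS-like and inhibitor genes, no site passed when ranked by fold. The site 32825 bp upstream of *Adamtsl2*, which is also in the window of *Adamts13* and nearest to *Slc2a6*, had 11.1, 12.8 and 8.30 in GR-con against 6.31, 6.83 and 6.27 in GR-KO (adjusted p = 0.148 by fold and 0.000809 by −log10 p, limma). A site 3001 bp upstream of *Adamtsl3* had peaks in GR-con only (3.23, 3.98 and 3.14). Sites with peaks in GR-KO only stood 75269 bp upstream of *Adamtsl4*, inside *Rprd2* (3.61, 2.84 and 4.12), and 695461 bp into *Adamtsl1* (3.61, 2.84 and 2.99). In the *Timp2* window, a site inside *Cant1* 60397 bp upstream was listed in GR-con 2 alone of the GR-con libraries (1.70) and in every GR-KO library (3.37, 3.14 and 3.45), with an adjusted p of 0.00533 by −log10 p and 0.17 by fold (limma). It met the minimum of 2 libraries only through GR-KO, so these p-values are a description. A site 83305 bp upstream, inside *C1qtnf1*, had 6.36, 6.79 and 6.61 in GR-con against 4.65, 5.13 and 5.02 in GR-KO (adjusted p = 0.047 by −log10 p and 0.402 by fold, limma). At *Timp1*, *Timp3* and *Timp4* no site passed under either ranking.

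**Figure D5:**
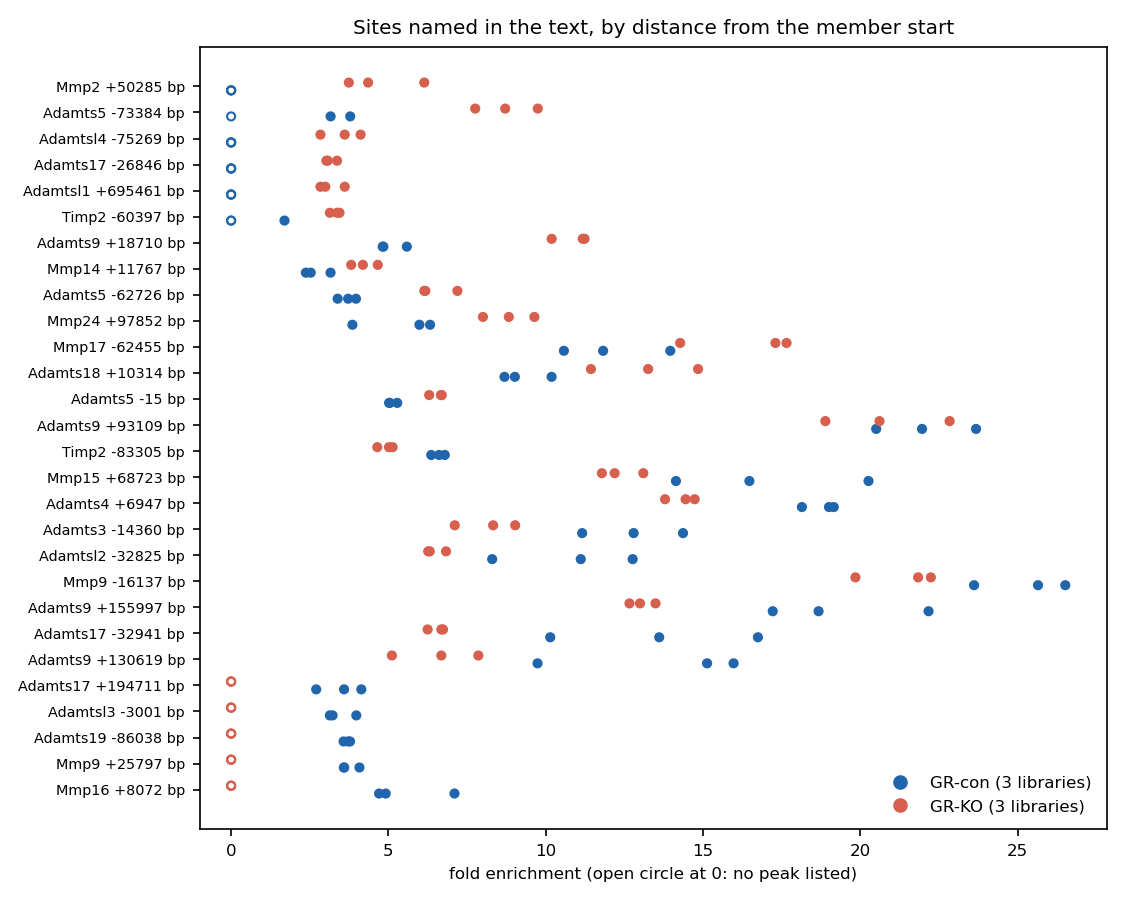
Fold enrichment per library at member sites named in the text, ordered by score difference, with each site given by its distance from the member TSS. Open circles at 0 mark libraries with no listed peak. The sites plotted leave out those of Adamts12, Adamts16 and Mmp14 (+12631), and among the plotted sites the GR-con and GR-KO points overlap at Adamts9 +93109 only.

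In all, 5 member sites (0.518%) had peaks in all GR-con but no GR-KO libraries, and 4 (0.415%) the reverse, against 1.15% and 0.618% of all sites. Besides those described, the GR-con sites include one 86038 bp upstream of *Adamts19* (3.78, 3.57 and 3.72). All 9 passed the minimum of 2 libraries only through the condition with peaks. Matched by a covering peak, the score differences at *Adamts19*, *Adamtsl4* and *Adamts17* (194711 bp) were -0.69, 0.56 and -0.36, against -1.07, 1.13 and -0.95 by summits. Peaks in every library were listed at 647 member sites (67.0%), against 62.0% of all sites.

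The full GR motif was present within 100 bp of the centre of 7 of 965 member sites (0.725%, exact 95% interval 0.292 to 1.49%) and of 0.634% of all sites, and the half-site at 15.2% (13.0 to 17.7%) and 17.3%. The AP-1 motif TGANTCA was present at 4.56% of member sites (exact 95% interval 3.33 to 6.07%) and 6.28% of all sites, and the NFI half-site at 51.9% (48.7 to 55.1%) and 48.3%, so both all-site shares lay outside the members' intervals, which within 50 bp held for the NFI half-site but not for AP-1. ACTGTA was at 7.25% (5.70 to 9.08%) and 7.82%. Over the genome, the full GR motif was at 22.1% of sites called lower and 2.04% of those called higher by fold, and ACTGTA at 3.92% and 43.9%. Of the 9 member sites called lower by −log10 p, 1 held the full GR motif, the *Adamts9* site at 155997 bp. Within 50 bp of the centre, 0 of the 9 held this motif. Of the 8 called higher, 0 held the full GR motif within 100 bp, and 4 held ACTGTA (50.0%, exact 95% interval 15.7 to 84.3%), as did 1 of the 9 lower sites. The 4 were at *Adamts9* (18710 bp), *Adamts5* (73384 bp), *Timp2* (60397 bp) and *Mmp24* (97852 bp). Since ACTGTA was picked on these data, its presence here is not independent evidence, and the *Timp2* site was kept only through GR-KO. Intervals cover counting error only.

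The proteases act with activators, further inhibitors, docking receptors and substrates, and 25 such genes were examined in the same way. Their windows held 686 sites, of which 1 was called lower and 0 higher in GR-KO by fold, and 5.25% and 4.52% were lower and higher at an unadjusted p under 0.05. The called share, 0.146%, lay near the 0.127% of all sites called lower, and 6.02% and 6.12% of all sites were lower and higher at the unadjusted level. The called site lies 2627 bp from the TSS of *Hapln1*, whose protein links proteoglycans to hyaluronan in perineuronal nets. It had a fold of 5.42, 6.09 and 6.42 for GR-con 1, 2 and 3 and no peak in GR-KO (score difference -1.57, standard error 0.203, adjusted p = 0.0406 from limma). It was kept through GR-con alone, with GR-KO tied at the lowest rank, so this p too is a description. Without any 1 GR-con library, 0 sites in the genome were called lower by fold, so this call rests on all 3. No site was called at the 4 proteoglycan genes *Acan*, *Bcan*, *Ncan* and *Vcan*. Since few of all sites were called, this absence over 20, 40, 37 and 13 sites says little. At an unadjusted p under 0.05, *Acan* had 4 lower and 0 higher sites. *Bcan* and *Ncan* each had 1 lower and 1 higher site at that level, and *Vcan* had 0 of either.

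The lists held 179462 to 198929 peaks, and Pearson's r of the scores across sites was 0.887 to 0.893 within conditions and 0.863 to 0.871 across them. At *Nr3c1*, the targeted gene, the site of smallest p in the gene body had a fold of 17.4, 17.4 and 14.3 for GR-con against 6.68, 4.73 and 6.36 in GR-KO (adjusted p = 0.024 from limma). Of 8 astrocyte marker promoters, 6 had a peak in every library, with a summed fold of 42.2 to 44.4 in GR-con and 44.2 to 46.3 in GR-KO, while *Aqp4* and *Aldh1l1* had none at the TSS used. Peaks were also present at 2 of 6 neuron, 1 of 2 oligodendrocyte precursor, 2 of 4 microglia, 1 of 4 oligodendrocyte and 2 of 4 pericyte and leptomeningeal marker promoters in every library. Of the 3 endothelial promoters, *Pecam1* had no peak, *Cldn5* a peak in 2 GR-KO libraries and *Flt1* in all 6, and the summed fold was 3.21 to 4.06 in GR-con and 5.68 to 6.96 in GR-KO. Of the 15 marker promoters with a peak in every library, the folds of *Aldoc*, *Sox9*, *Tmem119* and *Pdgfrb* were higher and those of *Gfap* and *Kcnj8* lower in every GR-KO library, while *Flt1* overlapped. The part of these markers in the differences above was not tested.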

How the data were processed

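ATAC-seq was performed by the authors on GFP-positive nuclei, with 3 GR-con and 3 GR-KO libraries, and reads were processed with the ENCODE ATAC-seq pipeline on mm10. The deposited lists, 1 per library, give for each peak a score, a fold (ratio over local background), and p-values and q-values on the −log10 scale. No listed peak had a p above 0.00999. No peak ended beyond its GRCm38 chromosome (0 peaks). Read counts were not used, so depth is unknown here and the test the authors ran on read counts (edgeR in DiffBind) was not repeated.

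Windows of 200 bp to each side of summits, taken in order of within-list rank without overlap, were kept with a summit in at least 2 libraries; 75.1% of member peaks fell in a kept site. Windows without a peak were tied lowest. Normal scores of fold ranks, and log2 of peak numbers plus 0.5 per 100000 listed peaks (genes with a mean of at least 5 peaks), were compared with limma 3.58.1 in R 4.3.3 (variance trend, two-sided, Benjamini-Hochberg over all sites or genes, threshold 0.05). Both steps were tested on simulated data. An exact permutation test of 3 against 3 libraries gives no p under 0.1. Motif intervals are exact (Clopper-Pearson, 95%).

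The member genes, gene lists and tests were chosen with earlier results of these data known. Named were members with a called site, in each direction the 8 sites with the lowest p, sites with peaks in 1 condition only, promoters with percentiles that did not overlap, the *Timp* genes, the genes with most peaks in each family, and the genes named by the study. Sites called by −log10 p were named after their values were seen. For 1 site the nearest gene is not reported here. Alternatives covered the ranked value, q-value limit, list length, overlap, libraries required, scaling, variance model, threshold, distance, pairing and each library left out.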

Additional observations from a re-analysis of the deposited data

How the results depend on the processing

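Ranking by −log10 p gave 1344 lower and 1223 higher sites in all (204 and 98 by fold) and 9 lower and 8 higher member sites (0 and 1 by fold). A peak covering over 200 bp of a site gave 449 lower and 248 higher in all, with 3 member sites higher. A summit within 100 bp gave 130 and 50 in all. The log2 fold at sites with a peak in all 6 libraries gave 348 and 336 in all, with 2 member sites lower, and the log2 of −log10 p gave 1930 and 3825 in all, with 11 and 24 member sites. Ranks over those sites gave 169 higher in all. Requiring 3 libraries gave 1 lower and 1 higher member site, beside 279 and 144 of all sites (0.197% and 0.102%). Without the variance trend there were 1075 and 769 in all, with 4 and 5 member sites, and at an adjusted p under 0.1 there were 990 and 623 in all, with 6 and 3. In the fit with the replicate block, 0 sites were called in either direction, in all or among members. The replicate numbers did not pair the libraries (correlations of same-numbered deviations of 0.0295, -0.0048 and 0.025), so the block is not read further.

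Leaving out each library in turn left 0 to 3 lower and 0 to 0 higher sites in all and 0 member sites in either direction, so the member call by fold needs all 6 libraries. The added settings were chosen after seeing the data. Ranked by −log10 p with 1 library left out, 1 to 5 member sites were lower and 1 to 4 higher, beside 0.115 to 0.523% and 0.126 to 0.244% of all sites (without GR-con 1, 2 and 3 and GR-KO 1, 2 and 3 in turn, 177, 184, 598, 809, 670 and 708 lower and 195, 205, 337, 377, 306 and 351 higher). Matched by a covering peak with 1 library left out, 0 member sites (without GR-con 3) to 5 (without GR-KO 2) were lower and 1 to 3 higher, beside 0.264 to 0.359% and 0.0836 to 0.162% of all sites (in the same order, 370, 396, 352, 341, 464 and 408 lower and 144, 147, 196, 209, 108 and 160 higher). Peaks per 100000 at members differed by -5.76 between GR-KO and GR-con with equal list lengths and by -1.81 (without GR-con 2) to 6.09 (without GR-con 1) with 1 library left out, against 2.56. Within 50 bp of the centre, ACTGTA was at 3.52%, AP-1 at 2.59%, the GR half-site at 8.29% and the NFI half-site at 37.2% of member sites, beside 3.82%, 3.31%, 9.07% and 33.1% of all sites. The full GR motif was there at 0.311% of member sites and 0.365% of all sites. ACTGTA was there at 3 of the 8 member sites called higher by −log10 p. The window is narrower by construction. The score difference of the *Adamts12* site at 133665 bp turned to -0.64 with a summit within 100 bp. Of 832 alternative values of the 31 named sites, 758 kept their direction and side of the threshold, 61 passed it, 12 no longer did and 1 reversed. The causes were not tested.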
